A study of Mus musculus with 8 samples.

Results

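The genes described here are 44 genes of DNA replication and S phase, the stage of the cell cycle in which the genome is copied. They were listed by name for their function, with earlier results of these data known, and each symbol was matched to its Ensembl gene through GENCODE mouse annotation. They make up 44 of the 48440 genes in the count table. All 44 passed the filter on low counts that left 18274 genes for testing.

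RNA came from the entire livers of newborn CD1 mice, an outbred stock, killed at 3 to 8 days of age. The knockout group was 4 pups with a germline deletion of Myosin 5b (Myo5b), an actin motor that carries recycling membranes to the apical surface of epithelial cells. The deletion is carried by every cell of the animal, so the liver was not the only organ without the motor. The control group was 4 littermates that were wildtype or heterozygous, and the labels do not say which pup was which, nor give age, sex or litter pup by pup. Each library came from 1 animal. The knockout pups are numbered 275, 276, 277 and 278 and the controls 279, 280, 281 and 282, and values for all animals are given below in that order.

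Copying of DNA runs through a fixed series of steps. In G1 the origin recognition complex, CDC6 and CDT1 load the ring-shaped MCM helicase onto origins, a step called licensing. At the start of S phase, CDC45 and the GINS complex join the ring to form the active helicase, primase and the polymerases copy both strands behind a sliding clamp, nucleases and a ligase join the lagging strand pieces, and enzymes of nucleotide metabolism supply the building blocks. Most of these genes are switched on together at the G1/S boundary by E2F factors, which is why they are widely used as markers of proliferating cells. In a newborn liver the cells known to divide include hepatocytes and the blood-forming cells, mainly red cell precursors, that remain there from fetal life.

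The libraries held 14228268 to 18398039 counts, of which 15941 to 21204 in the knockouts and 31905 to 38726 in the controls fell on the 44 genes. Myo5b itself was at 43.1 to 59.5 CPM (counts per 1000000, on TMM-scaled library sizes) in the knockouts and 94.0 to 172 CPM in the controls, a log2 fold change of -1.43 (SE 0.18, edgeR adjusted p = 0.000314), so reads on the gene were reduced but not gone. Mki67, a general proliferation marker, differed by -1.42 (SE 0.14). Hepatocyte markers were abundant in every library, at a summed 93400 to 104700 CPM in the knockouts and 115400 to 144300 CPM in the controls. Genes of the Y chromosome were expressed in knockout 277 and controls 279 and 281 and near 0 in the other 5 pups, so sex was not balanced between the groups. With Y-linked expression as a covariate, 38 of the 44 genes were called lower.

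The 44 genes were lower in the Myo5b knockout livers as a group and at every step of replication. At an adjusted p under 0.05 in edgeR's quasi-likelihood test, 39 of the 44 fell, 0 rose and 5 did not pass (Gins3, Pola2, Pole2, Rfc3 and Fen1), and all 44 estimates were negative. Across all genes tested, 11.4% were lower by the same rule and 9.27% were higher. The members' median log2 fold change was -1.02, with a range from -1.91 for Rrm2 to -0.40 for Pola2, against a median of 0.01 over all genes tested. For 40 of the 44, the 4 knockout values and the 4 control values did not overlap, a separation seen for 23.6% of all genes tested. A fall of over 2-fold past the same threshold was found for 24 members, or 54.5%, and for 3.68% of all genes tested.

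Summed over the 44 genes, the knockout livers were at 1016, 1019, 1036 and 1287 CPM and the controls at 2515, 2139, 2250 and 2414 CPM. The groups were far apart, and knockout 278 stood above the other 3 knockouts. The knockout livers thus held 43.6% to 55.2% of the mean control level.

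**Figure D1:**
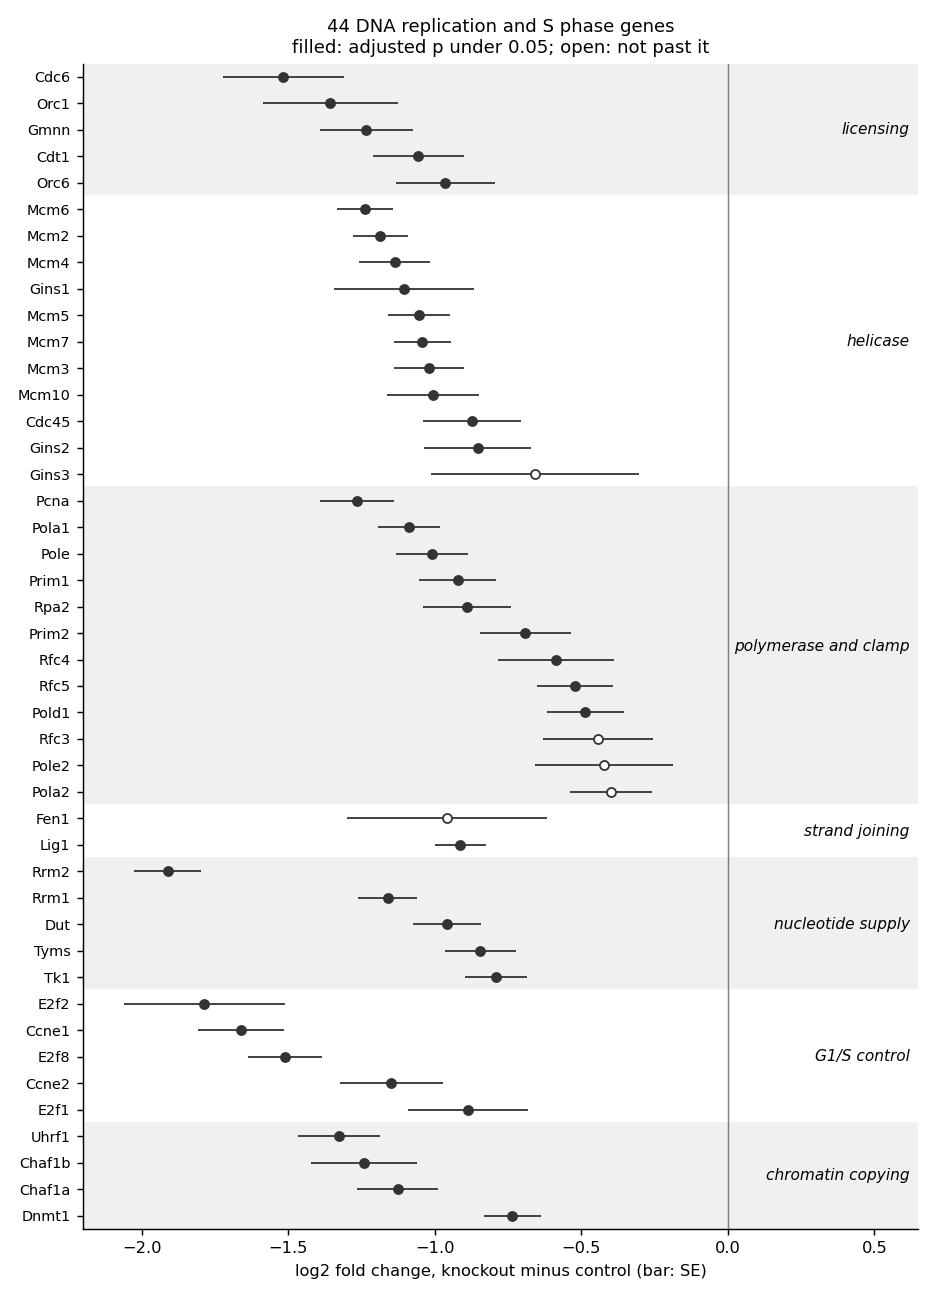
Log2 fold change, knockout minus control, of each of the 44 genes (points, with the SE as a bar), arranged by replication step, with filled points for an adjusted p under 0.05 and open points for the rest. Every point lies left of 0; the 5 open points are Gins3, Pola2, Pole2, Rfc3 and Fen1.

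Promoter sequences were set beside these values because E2F sites are the classical shared feature of the genes. RefSeq promoter windows (GRCm38.p6, 250 bases before to 50 after each start) were found for 37 of the 44 members. An E2F site, taken as TTTCCCGC, TTTGGCGC, TTTCGCGC or TTTGCCGC on either strand, was present for 16 of the 37 (43.2%), for 15 of 66 other replication genes (22.7%), for 4.36% of tested genes with a window and for 2.6% of all 27025 genes with one. Of the steps, licensing held it in 3 of 4 genes, the helicase in 5 of 8, and nucleotide supply in 0 of 5. Mcm6, which had the smallest p of the helicase genes, carried 3 matches, of which 2 overlap and are shown as a single run of capitals in the 250 bases upstream of its start (chr1:128359706-128359955, minus strand).
Mcm6: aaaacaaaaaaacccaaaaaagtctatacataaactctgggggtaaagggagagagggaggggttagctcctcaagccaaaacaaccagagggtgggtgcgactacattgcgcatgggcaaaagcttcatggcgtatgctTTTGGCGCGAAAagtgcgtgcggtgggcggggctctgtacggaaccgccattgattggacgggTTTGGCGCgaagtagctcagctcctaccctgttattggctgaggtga

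Short stretches from 9 other members follow, with 1 match or 1 overlapping run shown for each although Mcm3 and Mcm7 have another elsewhere in the window, each read 5′ to 3′ on the strand of its gene with the match in capitals and up to 10 bases on either side. They are shown so that the matches in licensing, helicase, polymerase and G1/S genes can be compared, and they lie on chromosomes 4 (Orc1 and E2f2), 11 (Cdc6), 8 (Cdt1 and Mcm5), 1 (Mcm3), 5 (Mcm7), X (Pola1) and 12 (Pole2).
Orc1, chr4:108579417-108579444, plus strand: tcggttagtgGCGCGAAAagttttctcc
Cdc6, chr11:98908003-98908030, plus strand: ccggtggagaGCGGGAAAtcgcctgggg
Cdt1, chr8:122568037-122568064, plus strand: gaactaccttTTTGGCGCcatggcgcaa
Mcm3, chr1:20820276-20820303, minus strand: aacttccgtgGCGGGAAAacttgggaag
Mcm5, chr8:75109346-75109377, plus strand: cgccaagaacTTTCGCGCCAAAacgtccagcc
Mcm7, chr5:138172031-138172058, minus strand: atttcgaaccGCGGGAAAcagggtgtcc
Pola1, chrX:93632276-93632303, minus strand: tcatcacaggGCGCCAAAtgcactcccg
Pole2, chr12:69228163-69228190, minus strand: gtcggcggtgGCGCCAAAtcgcgaacat
E2f2, chr4:136172303-136172323, plus strand: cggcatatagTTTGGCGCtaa

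Members were lower both with and without a match. Of the 16 with an E2F match, 13 were lower, with a median log2 fold change of -1.05, and of the 21 without, 19 were lower, with a median of -0.96. The last 25 bases lay in an annotated transcript of the gene for 39 of 45 member windows. Some windows, such as those of E2f1, Dut, Cdc6 and Mcm7, lie inside the annotated gene. The matches printed for Cdc6 and Mcm7 come from such windows and so lie downstream of the annotated gene start. A gene counted as without may also carry a match outside its window. Pole2, printed above, carried a match and did not pass the test, while Rrm2, which fell the most, carried none of the 4 sequences in its window. The 250 bases upstream of the Rrm2 start are shown for that contrast (chr12:24708004-24708253, plus strand), with a CCAAT box, a common promoter element, in capitals.
Rrm2: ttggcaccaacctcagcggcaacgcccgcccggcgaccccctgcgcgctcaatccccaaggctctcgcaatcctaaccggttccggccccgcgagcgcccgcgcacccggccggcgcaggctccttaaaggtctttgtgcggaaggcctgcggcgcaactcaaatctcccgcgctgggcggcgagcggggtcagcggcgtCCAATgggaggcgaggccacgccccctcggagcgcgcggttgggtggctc

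CCAAT, on either strand, was found for 22 of the 37 members with a window (59.5%). It was in 42.4% of tested genes with a window, in 41.1% of all genes with one, and in all 8 helicase genes matched. The CHR element TTTGAA, found in promoters of genes used late in the cell cycle, was in 18.9% of the members. It was in 15.2% of tested genes with a window and 20.2% of all genes with one. Among tested genes that are not members, 484 carried an E2F match, of which 19.6% were lower and 6.4% higher, and 10950 carried none, of which 12% were lower and 10.6% higher. A match is a run of letters in a window and not a measured binding site.

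The steps had different medians. Licensing genes fell in 5 of 5 cases with a median log2 fold change of -1.23, helicase genes in 10 of 11 with a median of -1.04, nucleotide supply in 5 of 5 with a median of -0.96, and polymerase and clamp genes in 9 of 12 with a median of -0.64. Genes of G1/S control had the lowest median, -1.51 with 5 of 5 lower, and those that copy chromatin stood at -1.18 with 4 of 4 lower. Strand joining had 1 of 2 lower and a median of -0.94. The difference between steps was not tested, since genes of a step are not replicates of it.

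The steps were also set side by side in each pup. Each gene was expressed as a percentage of its control mean and the median taken over the genes of a step. Polymerase and clamp genes were at 56.3%, 58.2%, 63.4% and 63.2% in knockouts 275 to 278. Licensing genes were at 37.3%, 44.9%, 37.8% and 52.6%, helicase genes at 42.6%, 44.2%, 46.3% and 54.9%, and nucleotide supply genes at 50.4%, 47.1%, 46.8% and 52.9%. In each of the 4 knockout livers the polymerase and clamp value was above those of licensing, the helicase and nucleotide supply, while the order of the latter differed between pups.

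**Figure D2:**
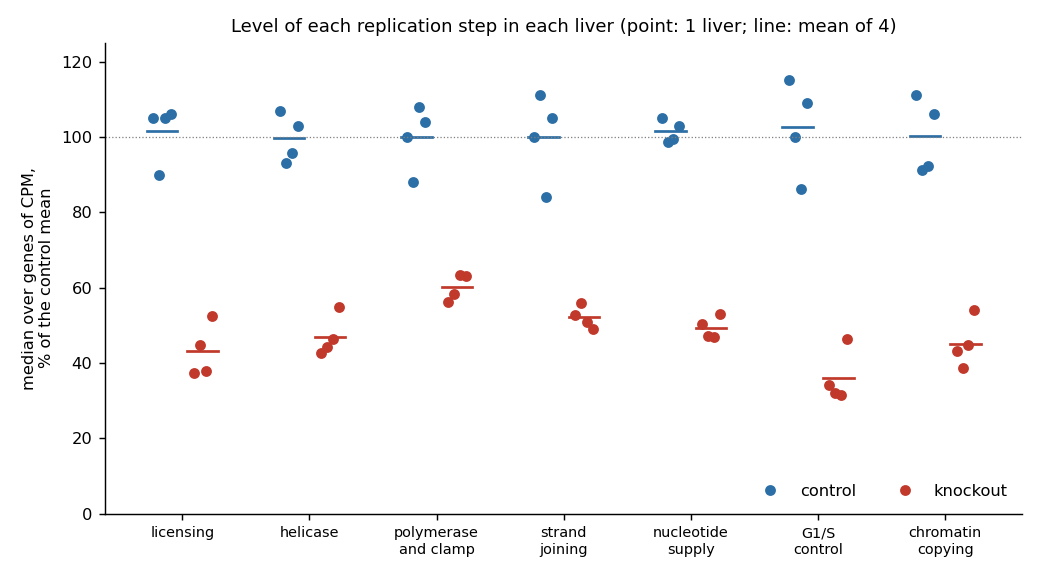
Level of each step in each liver, as the median over its genes of CPM in percent of the control mean (points, 1 per liver; short lines, mean of 4 livers). The knockouts lie between 31.6% (G1/S control) and 63.4% (polymerase and clamp), below every control point of the same step.

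All 5 licensing genes fell. Gmnn encodes geminin, which binds CDT1 and stops origins from being licensed again, and had the smallest p of the step. It was at 6.26, 8.44, 7.58 and 9.35 CPM in the knockouts and 17.4, 16.7, 20.6 and 19.6 CPM in the controls, with no overlap (log2 fold change -1.23, SE 0.16, edgeR adjusted p = 3.5e-05). Cdt1, the loading factor that geminin restrains, differed by -1.06 (SE 0.15), from a control mean of 38.3 ± 9.24 CPM to 18.4 ± 2.18 CPM (SD, n = 4). Inhibitor and target fell together: the log2 ratio of Cdt1 to Gmnn changed by 0.20, with a 95% limma interval of -0.264 to 0.664 (exact two-sided permutation adjusted p = 0.5714).

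Cdc6, the ATPase that loads the helicase with CDT1, showed the largest fall of the step. It was at 7.89, 8.95, 8.64 and 15.4 CPM in the knockouts and 30.6, 21.6, 30.6 and 33.9 CPM in the controls (log2 fold change -1.52, SE 0.21, edgeR adjusted p = 0.000146). Knockout 278 had the highest knockout value, still below every control. Orc1, the ATPase subunit of the origin recognition complex, differed by -1.36 (SE 0.23). Orc6, another subunit, had the smallest change, with 11.4, 10.7, 7.37 and 10.6 CPM against 24.1, 18.2, 19.2 and 16.5 CPM (log2 fold change -0.96, SE 0.17, edgeR adjusted p = 0.000566).

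The 6 MCM subunits of the helicase ring all fell, with estimates close together, from -1.02 (Mcm3) to -1.24 (Mcm6) on the log2 scale. Mcm6 was at 86.6, 76.9, 86.6 and 106 CPM in the knockouts and 225, 193, 212 and 210 CPM in the controls (SE 0.10, edgeR adjusted p = 4.72e-07). The groups were separated by a wide gap. Mcm2, Mcm4, Mcm5 and Mcm7 differed by -1.19, -1.14, -1.05 and -1.04, each with an SE of 0.09 to 0.12. Per kilobase of exon, the mean control level ran from 15.5 CPM for Mcm2 to 45.0 CPM for Mcm6. The mean knockout level ran from 6.83 to 19.1 CPM for the same genes. The length used merges the exons of all annotated transcripts and was longest for Mcm2, at 6956 bases. Without it the control mean of Mcm2, 108 CPM, was above those of Mcm4 (87.6), Mcm5 (83.6) and Mcm7 (99.7).

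The factors that turn the ring into a working helicase were lower too, with 1 exception in the test. Mcm10, needed to start unwinding, differed by -1.01 (SE 0.16), and Cdc45, which holds the ring to GINS, by -0.87 (SE 0.17). Gins1 and Gins2 differed by -1.11 (SE 0.24) and -0.85 (SE 0.18). Gins3 did not pass: it was at 3.83, 4.73, 1.16 and 3.58 CPM against 4.22, 3.75, 5.7 and 7.22 CPM, overlapping groups at 22 to 103 counts per library (log2 fold change -0.66, SE 0.36, edgeR adjusted p = 0.219). Exons of Gse1 on the opposite strand cover 67.3% of the exon bases of Gins2, and since the strand setting of the counting is not given in the sources used here, its reads cannot be assigned with certainty.

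In polymerase alpha-primase, which lays down the RNA-DNA primers, the catalytic subunit Pola1 had the smallest p of the polymerase step. It was at 32.2, 31.6, 28.9 and 38.7 CPM in the knockouts and 71.3, 60.9, 75.0 and 71.9 CPM in the controls (log2 fold change -1.09, SE 0.11, edgeR adjusted p = 2.79e-06). Its partner Pola2, the regulatory subunit, had the smallest change of all 44 genes, with 21.6, 19.1, 18.6 and 21.5 CPM against 26.4, 20.2, 27.3 and 32.7 CPM. Pola2 just missed the threshold and control 280 lay within the knockout range (log2 fold change -0.40, SE 0.14, edgeR adjusted p = 0.0541). The primase genes Prim1 and Prim2 fell by 0.92 and 0.69 on the log2 scale.

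Pole, the catalytic subunit of the leading strand polymerase, differed by -1.01 (SE 0.12), from 46.5 ± 5.08 CPM to 23.1 ± 3.21 CPM (SD, n = 4). Pole2, its accessory subunit, was at 5.74, 4.03, 4.32 and 3.34 CPM against 5.58, 5.77, 7.12 and 4.91 CPM, overlapping groups (log2 fold change -0.42, SE 0.24, edgeR adjusted p = 0.23). Pold1, the catalytic subunit of the lagging strand polymerase, differed by -0.49 (SE 0.13, edgeR adjusted p = 0.0135), a call that was lost when knockout 275 was left out (log2 fold change -0.43, edgeR adjusted p = 0.0527).

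Pcna, the sliding clamp, had a larger estimate than the genes of its loader, a difference that was not tested. It stood at 14.7, 16, 16.4 and 20.5 CPM in the knockouts and 40.7, 35.9, 40.7 and 44.9 CPM in the controls (log2 fold change -1.26, SE 0.13, edgeR adjusted p = 3.05e-06). The clamp loader genes Rfc4 and Rfc5 differed by -0.59 (SE 0.20, edgeR adjusted p = 0.0435) and -0.52 (SE 0.13, edgeR adjusted p = 0.0079). Rfc3, the remaining loader gene of the group, was at 6.61, 7.09, 9.95 and 10.8 CPM against 11.8, 12.3, 12.9 and 9.96 CPM and did not pass, with control 281 highest and control 282 inside the knockout range (log2 fold change -0.44, SE 0.19, edgeR adjusted p = 0.109). Rpa2, which coats exposed single strands, differed by -0.89 (SE 0.15). The call on Rfc4 was lost in 12 alternative settings, among them leaving out knockout 275, 276 or 277 or control 279, 281 or 282, while Pcna has processed pseudogenes whose reads could be exchanged with it.

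Of the strand joining genes, Lig1, the ligase that seals lagging strand pieces, was at 60.6, 70.4, 65.1 and 70.9 CPM in the knockouts and 137, 121, 114 and 130 CPM in the controls (log2 fold change -0.91, SE 0.09, edgeR adjusted p = 2.39e-06). Fen1, the nuclease that trims the flaps before ligation, had a similar estimate on far fewer reads, 18 to 49 per library. It was at 1.51, 1.47, 1.32 and 1.09 CPM against 2.4, 3.29, 2.02 and 2.8 CPM, groups that did not overlap (log2 fold change -0.96, SE 0.34, edgeR adjusted p = 0.0568). Other genes share 84.2% of the exon bases of Fen1, most of them on the opposite strand, so its count is uncertain.

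**Figure D3:**
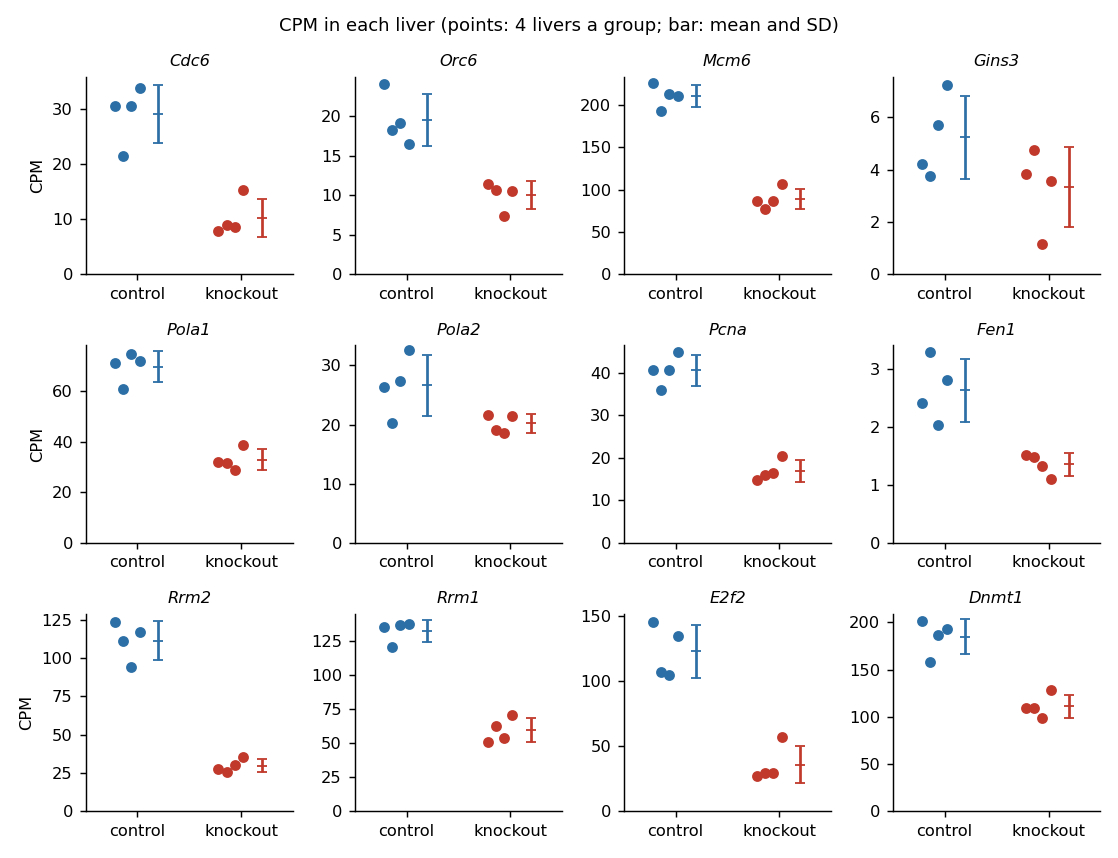
CPM of 12 of the genes in each liver (points; bars give the mean and SD of 4 livers), on linear axes that start at 0. The groups are apart for Cdc6, Orc6, Mcm6, Pola1, Pcna, Fen1, Rrm2, Rrm1, E2f2 and Dnmt1 and overlap for Gins3 and Pola2.

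All 5 nucleotide supply genes fell, led by ribonucleotide reductase, the enzyme that makes deoxyribonucleotides. Rrm2, its small subunit and the one made anew in each S phase, was at 27.3, 25.4, 30.3 and 35.4 CPM in the knockouts and 124, 111, 94.2 and 117 CPM in the controls. The highest knockout was well below the lowest control, and the ratio of the group means was 3.76 (log2 fold change -1.91, SE 0.11, edgeR adjusted p = 2.98e-08). Rrm1, the large subunit, was at 51.2, 62.8, 53.9 and 70.5 CPM against 136, 121, 137 and 138 CPM (log2 fold change -1.16, SE 0.10, edgeR adjusted p = 1.06e-06). The log2 ratio of Rrm2 to Rrm1 within a liver was lower by 0.74 in the knockouts, from -0.26 ± 0.20 to -1.0 ± 0.21 (SD, n = 4, exact two-sided permutation p = 0.02857, adjusted over 10 pairs 0.09523). In CPM, Rrm1 was above Rrm2 in every library. Per kilobase of exon, Rrm2 was at 40.3 and Rrm1 at 12.1 CPM in the controls, and at 10.7 and 5.41 CPM in the knockouts. That length merges the exons of all annotated transcripts, 11012 bases for Rrm1 and 2771 for Rrm2. The order of these genes therefore depends on the length used.

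The thymidylate genes had smaller estimates. Tk1, thymidine kinase, had the smallest change of the step, at 26.2, 22.9, 24.2 and 28.8 CPM against 46.3, 43.6, 44.8 and 42.1 CPM (log2 fold change -0.79, SE 0.10, edgeR adjusted p = 4.61e-05). Tyms, which makes thymidylate from deoxyuridylate, differed by -0.84 (SE 0.12), and Dut, which removes dUTP, by -0.96 (SE 0.12). The log2 ratio of Tk1, a salvage gene, to Tyms, a synthesis gene, changed by 0.04, with a 95% limma interval of -0.275 to 0.364 (exact two-sided permutation adjusted p = 0.7429). A processed pseudogene of Tyms is annotated, so a part of its reads could be exchanged.

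The 5 genes of G1/S control fell, and they included both activating and repressing E2F factors. E2f8, a repressor that shuts replication genes off later in S phase, had the smallest p, with 21.8, 21.8, 20.2 and 26.1 CPM in the knockouts and 75.3, 54.6, 55.2 and 71.1 CPM in the controls (log2 fold change -1.51, SE 0.13, edgeR adjusted p = 7.93e-07). The activator E2f2 was at 27.2, 29.6, 28.9 and 57.2 CPM against 146, 107, 105 and 135 CPM, with knockout 278 well above the other knockouts (log2 fold change -1.79, SE 0.27, edgeR adjusted p = 0.00379). The activator E2f1 had the smallest change of the step, with 7.66, 4.67, 8.95 and 10.2 CPM against 13.1, 14.6, 13.7 and 16.9 CPM (log2 fold change -0.89, SE 0.20, edgeR adjusted p = 0.00494).

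The E-type cyclins, which activate CDK2 to begin S phase, both fell. Ccne1 was at 10.2, 7.61, 9.16 and 12.3 CPM in the knockouts and 32.9, 32.8, 29.8 and 28.7 CPM in the controls (log2 fold change -1.66, SE 0.15, edgeR adjusted p = 1.18e-06). Ccne2 was at 8.88, 6.01, 7.32 and 9.89 CPM against 20.5, 19.0, 14.9 and 16.8 CPM (log2 fold change -1.15, SE 0.18, edgeR adjusted p = 0.000172). The log2 ratio of Ccne2 to Ccne1 was higher in the knockouts by 0.52, from -0.81 ± 0.13 to -0.29 ± 0.07, and the groups did not overlap (SD, n = 4, exact two-sided permutation p = 0.02857, adjusted over 10 pairs 0.09523). Exons of Ints8 on the opposite strand cover 17.4% of the exon bases of Ccne2.

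The genes that copy chromatin marks and histones behind the fork were all lower. Uhrf1, which reads hemimethylated DNA, was at 38.6, 32.6, 38.3 and 53.5 CPM in the knockouts and 115, 88.4, 94.5 and 111 CPM in the controls (log2 fold change -1.33, SE 0.14, edgeR adjusted p = 1.73e-05). Dnmt1, the methyltransferase that UHRF1 brings to that DNA, had the smallest change of the step, at 109, 109, 98.1 and 128 CPM against 202, 158, 187 and 193 CPM (log2 fold change -0.74, SE 0.10, edgeR adjusted p = 4.34e-05). The log2 ratio of Uhrf1 to Dnmt1 was lower in the knockouts by 0.60, from -0.85 ± 0.09 to -1.46 ± 0.21 (SD, n = 4, exact two-sided permutation p = 0.02857, adjusted over 10 pairs 0.09523). Chaf1a and Chaf1b, which encode the large subunits of the histone chaperone CAF-1, differed by -1.13 (SE 0.14) and -1.24 (SE 0.18), and Ubxn6 covers 52.5% of the exon bases of Chaf1a on the opposite strand.

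The within-step ratios were compared for 10 pairs of members, and after adjustment 0 of 10 passed 0.05 by the exact permutation test, whose smallest possible p is 0.02857. After adjustment a pair could pass only if most of the 10 pairs reached that floor, so the count of 0 does not show that ratios were unchanged. That smallest p was reached by 3 pairs, Rrm2 with Rrm1, Ccne2 with Ccne1, and Uhrf1 with Dnmt1. A limma fit of the same 10 differences, added after the data were seen, called these 3 pairs, with adjusted p of 0.00655, 0.00765 and 0.00762. Its 95% intervals were -1.092 to -0.394, 0.228 to 0.804 and -0.923 to -0.286. The other 7 pairs passed in neither test, and the ratio of Pole2 to Pole was the nearest of them (difference 0.58, limma interval 0.104 to 1.063, limma adjusted p = 0.0538).

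Other genes of the same machinery, 80 in number and all tested, moved in the same direction less uniformly. Of these, 47 were lower, 3 were higher and 30 did not pass, with a median log2 fold change of -0.46, against 11.4% lower and 9.27% higher over all genes tested. The largest falls were in Ccna2, the S phase cyclin A2 (log2 fold change -1.33, SE 0.13), and in Recql4 and Wdhd1, which act in assembling the helicase and coupling it to polymerase alpha (-1.22, SE 0.24, and -1.16, SE 0.13). By step, the other helicase genes were lower in 9 of 11 cases with a median of -0.84, polymerase and clamp in 7 of 11 (-0.42), licensing in 4 of 8 (-0.36) and nucleotide supply in 7 of 18 (-0.20). Among these genes the licensing median lay nearer to 0 than the helicase median.

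The 3 genes that rose were Samhd1, Rbbp7 and Dnmt3a. Samhd1, which breaks down deoxyribonucleotides, was at 132, 151, 107 and 179 CPM in the knockouts and 59.0, 55.1, 84.5 and 63.7 CPM in the controls, opposite in direction to the 5 supply genes (log2 fold change 1.11, SE 0.18, edgeR adjusted p = 0.00159). Rbbp7, a histone-binding protein of several chromatin complexes, was at 854, 813, 603 and 388 CPM against 268, 286, 231 and 259 CPM, spread widely among the knockouts (log2 fold change 1.35, SE 0.24, edgeR adjusted p = 0.00695). Dnmt3a, a methyltransferase of unmethylated DNA, rose by 0.24 on the log2 scale (SE 0.07, edgeR adjusted p = 0.0277). In the same livers 12 of 13 macrophage markers were higher, at a summed 1695 to 1957 CPM against 934.7 to 1069 CPM, and their part in the rise of Samhd1 was not tested.

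Within complexes, not all subunits passed the test. Across 10 complexes with 42 subunits, 22 of the 26 that are members and 8 of the 16 others were lower. The MCM ring was lower in 6 of 6 subunits, and CAF-1, counted with Rbbp4, in 3 of 3. In the origin recognition complex Orc1, Orc2 and Orc6 fell, while Orc3, Orc4 and Orc5 did not pass, with log2 fold changes of -0.13, -0.17 and -0.24. The small subunits Pold4 and Pole4 had estimates above 0 (0.42 and 0.25, neither past the threshold), as did Rrm2b, the alternative small subunit of ribonucleotide reductase that is used outside S phase (0.17, SE 0.20, edgeR adjusted p = 0.601). The difference between Rrm2b and Rrm2 was not tested. Rpa3 and Rfc2 did not pass either, at -0.01 and -0.16.

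**Figure D4:**
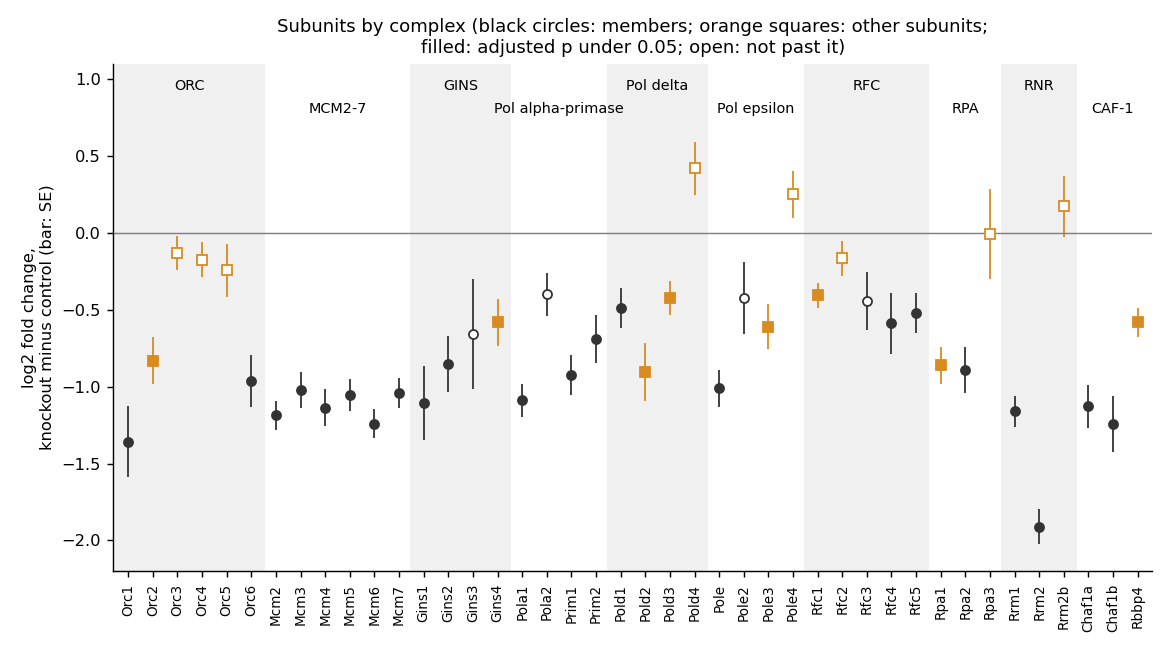
Log2 fold change, knockout minus control, with its SE, of the 42 subunits of 10 replication complexes (circles, members; squares, other subunits; filled, adjusted p under 0.05). The 6 MCM subunits lie between -1.24 and -1.02, while Orc3, Orc4, Orc5, Rfc2, Rpa3, Pold4, Pole4 and Rrm2b lie nearer to 0 and do not pass.

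Genes of other cell cycle stages and of red cell precursors were lower in the same livers. All 25 mitosis genes fell, with a median log2 fold change of -1.16. Of 24 erythroid markers tested, 23 were lower, with a median of -1.91, and Car1 did not pass. Summed erythroid markers were at 2403, 3163, 2275 and 4702 CPM in the knockouts and 12250, 9650, 9284 and 12140 CPM in the controls, with knockout 278 the highest knockout here as in the sum of the 44 genes. The defining markers Alas2, Slc4a1, Hba-a1, Hbb-bs, Klf1, Gata1 and Epb42 were at 0 in no library, and the lowest of them, Gata1, was at 2.44 to 7.28 CPM in the knockouts and 16.9 to 20.1 CPM in the controls. Over the whole list the lowest marker was Cldn13, at 1.05 to 4.49 CPM in the knockouts and 8.18 to 12.2 CPM in the controls. Against 1000 erythroid CPM, the 44 genes summed to 274 to 455 CPM in the knockouts and 199 to 242 CPM in the controls. Most of the erythroid sum, on average 10830 CPM in the controls, came from globin genes. Hba-a1, Hbb-bs, Hbb-bt and Hba-a2 had control means of 3442, 1691, 1461 and 1123 CPM. The ratio is therefore largely one to globin RNA and not to a number of cells. In whole liver RNA, fewer cells of a type and less RNA per cell cannot be told apart.

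**Figure D5:**
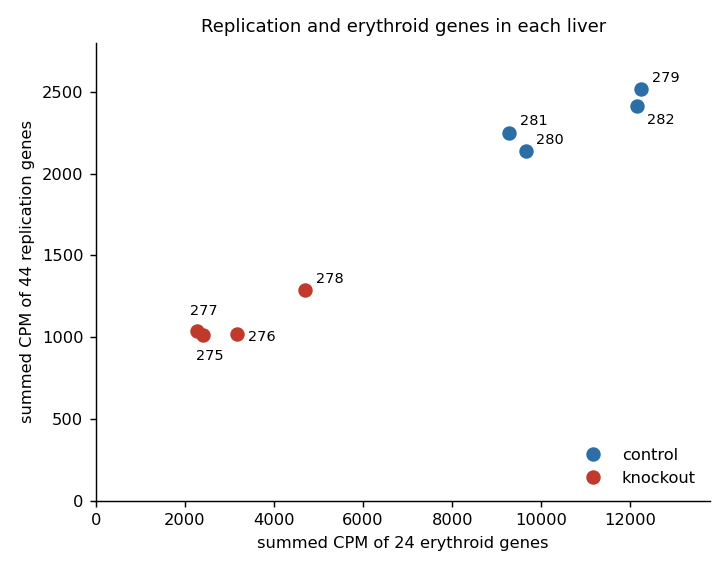
Summed CPM of the 44 replication genes against summed CPM of 24 erythroid markers in each liver (points, labelled by pup number). The 4 knockouts lie at 2275 to 4702 erythroid CPM and 1016 to 1287 replication CPM, the 4 controls at 9284 to 12250 and 2139 to 2515, so the groups are apart on both axes.

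The part of erythroid cells in the fall of the 44 genes was not tested. A fit with the erythroid score as a covariate left 0 members past the threshold, with 40 of 44 estimates still negative and a median of -0.52. In that fit the score correlated with genotype at -0.94, the median SE of a member rose from 0.14 to 0.39, and over all genes only 20 were lower and 25 higher. In other lists, 7 of 9 endothelial markers were higher and 0 lower, and 3 of 13 hepatocyte markers were lower and 1 higher. Of the other blood lists, 4 of 11 megakaryocyte markers were lower and 1 higher. For B cell precursors 4 of 11 tested were lower and 1 higher, and for neutrophils 2 of 12 were lower and 0 higher. Of 9 stellate markers 2 were lower and 3 higher, and 0 of 6 tested cholangiocyte markers passed. Over all genes tested, 11.4% were lower and 9.27% higher.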

How the data were processed

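The deposited table holds raw read counts for each Ensembl gene in 8 whole-liver libraries, which the authors aligned with Rsubread 2.20.0 (BiocManager 1.30.26, R 4.4.1), per the labels' protocols, with featureCounts for counting, per the submitters' processing notes. Their build, spelled GRMm38, was read as GRCm38. For the annotation and strand setting the sources used here give nothing.

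Groups were taken from the genotype label. Counts were filtered with filterByExpr (minimum count 10, minimum total 15), scaled by TMM and tested with edgeR 4.0.16 (robust quasi-likelihood F-test, R 4.3.3), with Benjamini-Hochberg adjustment over 18274 genes. The SE is the log2 fold change over the square root of F. Ratios of pairs used log2 CPM (prior count 2) and all 70 assignments. Alternatives included DESeq2 1.42.0 and limma 3.58.1, and figures used matplotlib 3.10.9. Each library counted as 1 animal because each carries its own pup number. Replicates of a group differed beyond sampling noise (chi-square per degree of freedom 12.2 to 24.0).

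The members, the gene lists and the tests were chosen with earlier results of these data known. Named genes are, for each step, those with the smallest p and the smallest change, every member not called, the pairs with the smallest adjusted p, the 3 largest falls and all rises among other replication genes, and subunits of shared complexes. Cdc6, E2f2, Pcna and members given only by their change were added after their values were seen. On simulated counts of this comparison (3 runs, 18274 genes, 200 changed per run), 26.4%, 58.2% and 87.4% of genes changed 1.5-, 2- and 4-fold were recovered, with 7.3% false among calls. Far more genes were called in the data, 2088 lower and 1694 higher. The adjustment depends on that share, so these rates need not hold for the data.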

Additional observations from a re-analysis of the deposited data

Results flagged for a closer look

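The CPM of each of the 44 genes was checked in both groups, 88 sets of 4 values, for a library lying far from its own group. About 1 set in 20 is expected to be picked out by chance, and 5 were. Knockout 278 was the highest knockout in 3 of them: Cdc6 at 15.4 CPM (next 8.95), Mcm7 at 57.8 CPM (next 46.2) and E2f2 at 57.2 CPM (next 29.6). Knockout 278 was also the knockout with the highest summed erythroid markers, 4702 CPM, and the part of these in its values was not tested. Without knockout 278, E2f2 had a log2 fold change of -2.11 (edgeR adjusted p = 6.26e-09). Control 280 was the lowest control in the other two, Rpa2 at 16.9 CPM (next 22.7) and Rrm1 at 121 CPM (next 136).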

How the results depend on the processing

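The 44 genes stayed negative under every scaling, filter, tool and left-out library tried, and the fit with an erythroid covariate was the exception. In it the estimates of Cdc6 (0.022) and Mcm10 (0.118) and of the uncalled Gins3 and Pola2 were above 0. The median SE of a member in that fit was 0.39, and the erythroid score correlated with genotype at -0.94. None of these positive estimates passed the threshold. Members called lower numbered 37 to 40 when each library was left out, 39 without both knockout 278 and control 282 (added after the data were seen), 41 with DESeq2, 25 with a minimum fold of 1.5 and 0 with the erythroid covariate. Other replication genes called lower numbered 42 to 46 with each library left out, 9 with the minimum fold and 1 with the covariate. Those called higher numbered 2 to 4, 1 and 0. With library size alone as the scaling, 38 members were lower, the median over all genes moved from 0.009 to 0.078, and 57.6% of calls were higher instead of 44.8%. Within-step pairs past the threshold numbered 0 by permutation, also with raw counts or with each library left out, and 3 by limma. The permutation counts say little, since a pair could pass only if most of the 10 pairs reached the smallest possible p. Rfc4 lost its call in 12 settings, Pola2, Rfc3 and Fen1 gained one in some, and causes were not tested. The uncalled Fen1 and Gins3 had as few as 18 and 22 counts in a library, and at that depth a modest difference may not be detectable. No paired analysis was possible because the groups share no replicate number.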
